A study of Homo sapiens with 18 samples.

Results

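The mitochondrial ribosomal protein genes are the rows of the count table whose symbol begins with MRPL or MRPS, followed by a number and at most 1 letter from A to C. A mean of at least 100 counts over the 18 libraries was also required. All 77 rows that match the pattern met this minimum, out of 25369 rows in the table, and all 77 were among the 14850 genes tested. The lowest member by mean count was MRPS18C at 430.3, so no row lay just outside the limit. Of the 77, 48 carry names of the large subunit (MRPL) and 29 names of the small subunit (MRPS). As background, 2 MRPS names, MRPS18A and MRPS30, belong to proteins found in the large subunit. MRPS36 is now known as KGD4, a part of the 2-oxoglutarate dehydrogenase complex, and was kept because the rule goes by symbol.

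The mitochondrial ribosome makes the few respiratory chain proteins that are encoded in mitochondrial DNA. Its RNA comes from the mitochondrial genome, while every protein of it is encoded in the nucleus, made in the cytosol and imported. Some of these proteins descend from those of the bacterial ribosome, and others are found in mitochondria alone. MYC and the nuclear respiratory factors are known to act on many genes of mitochondrial biogenesis.

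The study compared D425 and D458, both established lines of Group 3 medulloblastoma, a childhood tumour of the cerebellum in which MYC is often amplified. Cells received a non-targeting control hairpin or a short hairpin RNA against EYA2, a transcriptional coactivator and phosphatase. Hairpins 6 and 8 were used in D425 and hairpins 7 and 8 in D458. Each of the 6 groups had 3 replicates, which the labels call biological. Every group, controls included, was held for 48 h in 1 µg/mL puromycin, sorted for the brightest 10% by the zsGreen that the constructs carry, and left for 24 h before RNA was taken. Poly(A) RNA was sequenced in bulk, so that less RNA per cell and fewer cells of a type cannot be told apart. Each line is a single cell line, so line and tumour cannot be told apart either. The sample titles do not name the patients of origin, so the lines are not taken as independent patients.

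The 18 libraries held 21260369 to 31552051 counts. Levels are TMM-scaled CPM, counts relative to the library's size, and changes are log2 fold changes with their standard error from 1 edgeR quasi-likelihood fit of all libraries. A gene is called where its Benjamini-Hochberg adjusted p over all genes tested is under 0.05. EYA2 stood at 43.6, 24.6 and 15.5 CPM in D425 controls, 15.1, 10.7 and 9.72 with hairpin 6 and 17.5, 12 and 12.7 with hairpin 8, so that hairpin 8 overlapped the controls. In D458 it stood at 73.7, 67.5 and 69.8 CPM in controls, 47.5, 51.9 and 45.1 with hairpin 7 and 18.2, 23.5 and 19.3 with hairpin 8, without overlap. It was lower with D425 hairpin 6 (log2 change -1.24 ± 0.27, adjusted p = 0.0069), D425 hairpin 8 (-0.98 ± 0.27, adjusted p = 0.017) and D458 hairpin 8 (-1.79 ± 0.27, adjusted p = 0.00051). With D458 hairpin 7 its change was -0.55 ± 0.26 and was not called (adjusted p = 0.14). The 7 Group 3 markers summed to 5417 to 6221 CPM in D425 controls and 6277 to 6797 in D458 controls. They summed to 4253 to 5138 CPM in the D425 hairpin libraries and 5247 to 6445 in those of D458. These sums were mainly MYC and OTX2, and not every marker followed them. CRX rose in D458, from 18.2 to 24.5 CPM in controls to 38.9 to 58.7 in hairpin libraries. With D425 hairpin 8, IMPG2 stood at 570 to 674 CPM against 481 to 540 in controls, and NRL at 19.5 to 34.5 against 15 to 17.4. NPR3 was at most 0.15 CPM in any library. The 4 fibroblast markers, none at 0 in any group, summed to 1.97 to 7.02 CPM in the 6 control libraries and 16.6 to 42.6 CPM in the 12 hairpin libraries. In D425 this sum was mainly COL1A1, a collagen chain, and in D458 also DCN and LUM, matrix proteoglycans. Not every marker of the list rose. COL1A2 was at most 0.465 CPM in any library. DCN in the D425 hairpin libraries stood at 0.234 to 0.817 CPM, within the 0.0317 to 1.46 of its controls. These marker shifts ran beside each result on hairpins below, and their part in it was not tested. Markers of the hedgehog type of medulloblastoma summed to 20.3 to 23 CPM in D425 controls and 27 to 36 in its hairpin libraries, and to 50.6 to 96.1 and 89.7 to 142 in D458. This sum was mainly PDLIM3, at 16.5 to 17.7 CPM in D425 controls and 45.6 to 91.8 in D458 controls. ATOH1 and SFRP1 were at most 0.233 CPM in any library, so the sum is not read as a shift of tumour type. Immune, endothelial and WNT-type markers summed to at most 3.41 CPM in any library.

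Promoter sequences are shown for 5 members. They are MRPL40, MRPL3, MRPL47 and MRPS26, 4 of the 5 members lower with hairpin 8 in both lines, and MRPS9, which was higher with 3 of the 4 hairpin groups. Each is the 250 bases before the transcription start in RefSeq's GRCh38.p14 table, written on the gene's strand. Capitals mark matches on either strand to CCGGAAG (an ETS-type site, as bound by the nuclear respiratory factor NRF2, also called GABP), to GCGC, any 2 bases and GCGC again (an NRF1-type site) or to AAGATGG (a YY1-type site).
MRPL40, chr22:19432295-19432544, plus strand: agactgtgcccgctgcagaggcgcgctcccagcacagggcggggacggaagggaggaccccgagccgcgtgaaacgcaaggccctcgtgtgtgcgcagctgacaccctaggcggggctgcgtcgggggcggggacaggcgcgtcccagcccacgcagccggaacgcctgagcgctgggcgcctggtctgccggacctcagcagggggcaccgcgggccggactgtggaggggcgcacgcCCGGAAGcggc
MRPL3, chr3:131502972-131503221, minus strand: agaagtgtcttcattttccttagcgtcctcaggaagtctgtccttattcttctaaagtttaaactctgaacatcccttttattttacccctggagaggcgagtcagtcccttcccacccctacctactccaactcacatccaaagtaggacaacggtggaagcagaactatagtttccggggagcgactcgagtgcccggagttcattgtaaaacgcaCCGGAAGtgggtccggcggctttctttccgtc
MRPL47, chr3:179604639-179604888, minus strand: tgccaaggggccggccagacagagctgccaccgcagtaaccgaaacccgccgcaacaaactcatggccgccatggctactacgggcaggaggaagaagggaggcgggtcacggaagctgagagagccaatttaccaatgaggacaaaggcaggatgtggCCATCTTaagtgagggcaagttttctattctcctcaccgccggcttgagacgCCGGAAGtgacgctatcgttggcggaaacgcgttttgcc
MRPS26, chr20:3045802-3046051, plus strand: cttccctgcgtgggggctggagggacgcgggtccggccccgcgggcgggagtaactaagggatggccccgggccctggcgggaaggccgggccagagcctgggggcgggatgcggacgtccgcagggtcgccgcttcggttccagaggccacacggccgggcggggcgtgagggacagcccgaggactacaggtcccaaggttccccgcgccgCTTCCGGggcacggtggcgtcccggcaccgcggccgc
MRPS9, chr2:105037819-105038068, plus strand: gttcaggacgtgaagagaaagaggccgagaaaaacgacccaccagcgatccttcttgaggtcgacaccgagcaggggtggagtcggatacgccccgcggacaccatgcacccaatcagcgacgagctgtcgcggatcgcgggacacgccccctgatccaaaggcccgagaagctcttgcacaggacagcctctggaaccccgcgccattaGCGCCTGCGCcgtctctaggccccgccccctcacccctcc
MRPL27, also lower with hairpin 8 in both lines, is not shown, as the number printed was limited to 5, and it held 2 ETS-type matches, beginning 52 and 8 bases before the start. The 4 members shown that were lower each held 1 ETS-type match, beginning 11 bases before the start in MRPL40, 32 in MRPL3, 37 in MRPS26 and 39 in MRPL47. MRPL47 also held 1 YY1-type match, 91 bases before the start. MRPS9 held no ETS-type match in this window and 1 NRF1-type match, 40 bases before the start.

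Over the whole family, 68 of the 77 members had a promoter in the RefSeq table. Of these, 22 (32.4%) held CCGGAAG on either strand, against 15.1% of the 10629 promoters of tested genes and 8.82% of all 27305 promoters. The YY1-type letters AAGATGG stood in 7 of 68 (10.3%), against 3.47% of tested genes. The NRF1-type letters stood in 9 of 68 (13.2%, tested genes 13.4%) and the E-box CACGTG, the kind of site MYC binds, in 6 of 68 (8.82%, tested genes 8.96%). Among members called lower, the ETS-type letters stood in 2 of 6 with D425 hairpin 6, in 9 of 16 with D425 hairpin 8, in 10 of 18 with D458 hairpin 7 and in 11 of the 22 with a promoter with D458 hairpin 8. Among members not called they stood in 20 of 60, 13 of 51, 12 of 49 and 11 of 45, so that the shares were equal with D425 hairpin 6. These shares are descriptions of letters in a window and were not tested.

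In control cells the family was broadly expressed at a moderate level. Member levels over all libraries averaged from 16.9 CPM in MRPS18C to 326 CPM in MRPL12. Per kilobase of the principal coding transcript, the highest level in control cells was that of MRPL12, at 348 CPM per kilobase. It encodes the homologue of the bacterial L7/L12 stalk protein. The median member was at 54.0 CPM per kilobase. Annotated lengths differ between transcripts of a gene, so the order of members below MRPL12 is not read from them. By name, 34 members have pseudogenes in GENCODE, 75 in all, and reads of such copies may be split. Another 14 members, some of them also in that group, overlap a second gene with counts, and how strand was used in counting is not given in the sources used here.

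Summed over the 77 genes, the family made up 6458, 6393 and 6774 CPM in D425 controls 1, 2 and 3. With hairpin 6 the sums were 6285, 6495 and 6183 CPM, and with hairpin 8 they were 5691, 6071 and 5910. The hairpin 6 libraries overlapped the controls, while all 3 hairpin 8 libraries lay below them. In D458 the controls stood close together at 6658, 6672 and 6776 CPM. Hairpin 7 gave 5659, 6026 and 6427 CPM and hairpin 8 gave 5288, 6171 and 6375. All 6 hairpin libraries of D458 lay below its 3 controls, and replicate 1 was the lowest with both hairpins. As mean ± SD (n = 3), the sums were 6542 ± 204, 6321 ± 159 and 5891 ± 191 CPM in D425 and 6702 ± 64.6, 6037 ± 384 and 5945 ± 578 in D458.

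**Figure D1:**
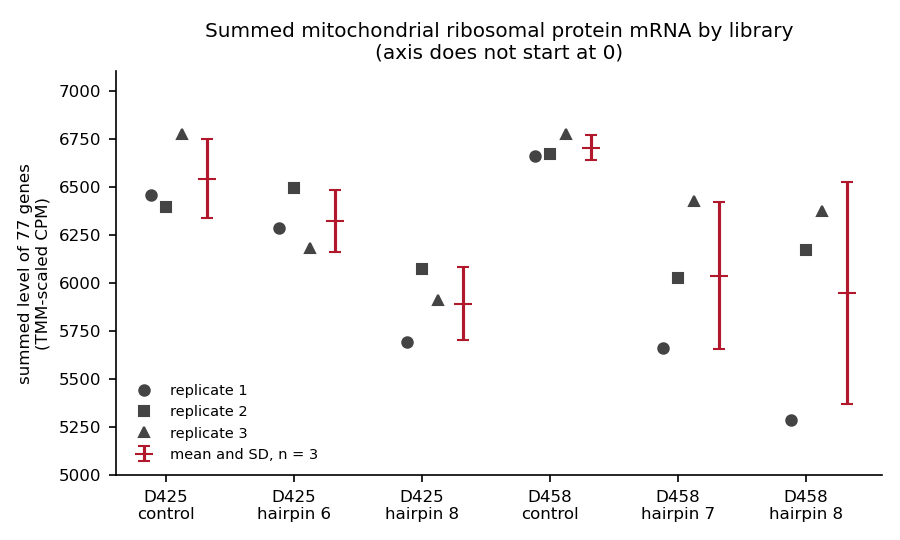
Summed level of the 77 mitochondrial ribosomal protein genes in TMM-scaled CPM (vertical axis, which does not start at 0) in each of 18 libraries, by group, with the replicate number as the symbol and the mean and SD (n = 3) beside it. D425 hairpin 8 and both D458 hairpin groups lie below their controls, and D425 hairpin 6 overlaps them.

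In D425 cells with hairpin 6, the family as a whole stayed near its control level. The median change over members was 0.00, against 0.01 over all genes tested, and 38 of 77 members had a change below 0. Of the members, 6 were called lower (7.79%, background 6.84% of all genes) and 2 higher (2.60%, background 7.31%). The share called lower was thus close to that of all genes and the share called higher was below it. Those that fell were MRPS26, MRPS2, MRPL50, MRPL41, MRPL38 and MRPS7, by log2 changes of -0.56 to -0.23, and those that rose were MRPS6 and MRPS9.

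With hairpin 8 in the same line, more of the family was lower. The median member change was -0.10 against 0.02 over all genes, and 57 of 77 members had a change below 0. Of the members, 16 fell (20.8%) where 10.1% of all genes were called lower, and 1 rose (background 11.6%). Abundant genes were called lower more often as a group, since 14.1% of the 8254 genes at least as abundant as the lowest member were lower. The groups did not overlap for 27 members that were lower, 35.1% of the family against a background of 17.4% and 22.5% of the abundant genes, whose median change was -0.04. By subunit name, 9 of 48 MRPL and 7 of 29 MRPS genes fell.

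Beside MRPS26, MRPS2, MRPL41, MRPL38 and MRPS7, the members with the smallest adjusted p among those lower with D425 hairpin 8 were MRPL47, MRPL27, MRPS21, MRPL44 and MRPL3. MRPL27 stands near the peptidyl transferase centre, where peptide bonds are made. Its level was 98.3, 89.4 and 103 CPM in controls and 71.1, 71.2 and 76.1 with hairpin 8, with all hairpin libraries below all controls (log2 change -0.41 ± 0.10, adjusted p = 0.0083). MRPS21, the homologue of bacterial S21, stood at 103, 107 and 103 CPM in controls and 88.8, 93.5 and 80.2 with hairpin 8, again without overlap (-0.25 ± 0.06, adjusted p = 0.0094). With hairpin 6 the same 2 genes changed by -0.16 and -0.01 and were not called. Both comparisons use the same 3 controls.

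The direct comparison of the D425 hairpins called no member and no other gene. In it, 71 of 77 members had a lower mean with hairpin 8, the median change was -0.09, and 23 members had groups without overlap in that direction (29.9%, background 5.73%). At an unadjusted p under 0.05, 5 members and 519 of the 14850 genes tested differed, and DESeq2 also called 0 members. The difference between the hairpins was thus small for each gene and did not pass the test.

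In D458 cells both hairpins gave a median below that of all genes and of genes at least as abundant as the lowest member. With hairpin 7 the median member change was -0.17 (all genes 0.01), 61 of 77 members had a change below 0, 18 fell (23.4%, background 11.1%) and 1 rose (background 11.5%). With hairpin 8 the median was -0.19 (all genes 0.01), 64 of 77 had a change below 0, 23 fell (29.9%, background 11.1%) and 1 rose (background 12.1%). Genes at least as abundant as the lowest member stood between the family and all genes, with medians of -0.08 and -0.07, 60.7% and 60.3% of changes below 0, and 16.6% and 17% called lower. Groups without overlap on the lower side numbered 38 with hairpin 7 (49.4%, background 21.5%) and 35 with hairpin 8 (45.5%, background 20.7%), where those of the abundant genes were 30.7% and 29.7%. Of the 48 MRPL genes, 12 fell with hairpin 7 and 17 with hairpin 8, and of the 29 MRPS genes 6 fell with each. The direct comparison of the D458 hairpins called 0 members and 0 of the 14850 genes tested. At an unadjusted p under 0.05, 1 member and 274 of all genes differed, and DESeq2 also called 0 members.

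**Figure D2:**
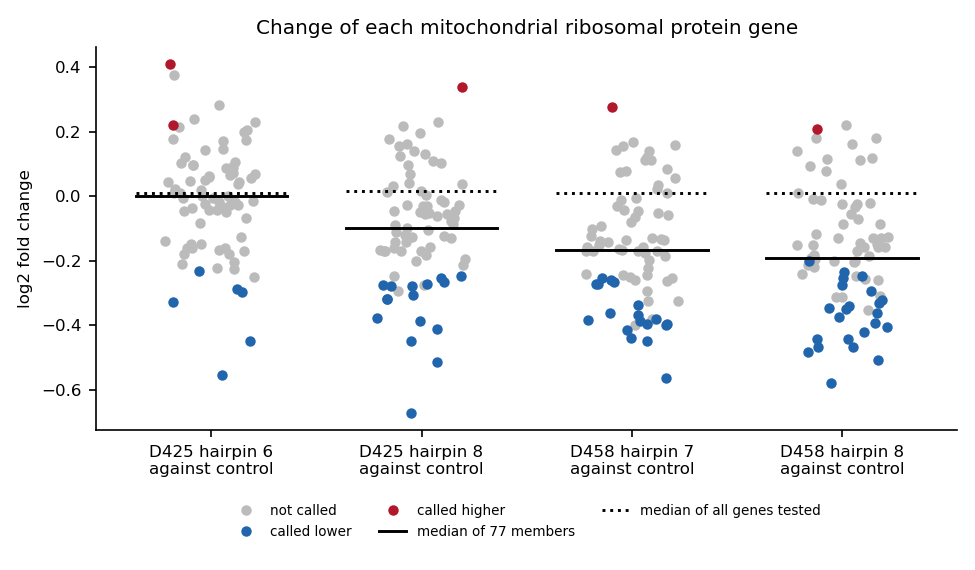
Log2 fold change (vertical axis) of each of the 77 members in the 4 comparisons of a hairpin with its line's control, coloured by call, with the median of the members (solid line) and of all genes tested (dotted line). The member median is at 0.00 for D425 hairpin 6 and at -0.10, -0.17 and -0.19 for the others, while members called lower range from -0.67 to -0.20.

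MRPL40, MRPL3 and MRPL47 had the 3 smallest adjusted p of the members with each D458 hairpin, and the subunits were not compared by a test. MRPL40, a protein of the mitochondrial ribosome with no bacterial homologue, stood at 66.1, 64.6 and 66.5 CPM in D458 controls. With hairpin 7 it was at 49.3, 47.0 and 56.3 CPM, and with hairpin 8 at 42.6, 50.1 and 49.9. No hairpin library reached the lowest control, and the log2 changes were -0.37 ± 0.09 (adjusted p = 0.0071) and -0.47 ± 0.09 (adjusted p = 0.0017). In D425 its controls were at 59.4, 51.4 and 55.6 CPM, hairpin 6 at 51.7, 54.7 and 50.6 and hairpin 8 at 45.3, 48.3 and 44.8. Only hairpin 8 lay wholly below the D425 controls (-0.27 ± 0.09, adjusted p = 0.035), while hairpin 6 overlapped them (-0.08 ± 0.09, adjusted p = 0.57). The D458 calls held without any single library. The D425 hairpin 8 call held in 2 of 6 such fits, with the highest adjusted p, 0.11, without control 1.

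MRPL3, the homologue of bacterial L3 near the peptidyl transferase centre, was among the most abundant members in D458. Its controls there were at 320, 300 and 298 CPM, hairpin 7 at 217, 257 and 240, and hairpin 8 at 216, 263 and 245. All hairpin libraries lay below all controls, with changes of -0.36 ± 0.08 for hairpin 7 (adjusted p = 0.0062) and -0.34 ± 0.08 for hairpin 8 (adjusted p = 0.0084). In D425 it was at 229, 225 and 231 CPM in controls and 181, 202 and 183 with hairpin 8, without overlap (-0.27 ± 0.08, adjusted p = 0.026). Hairpin 6 in D425 gave 195, 218 and 198 CPM, also below the controls, and its change of -0.16 ± 0.08 was not called (adjusted p = 0.21). With single libraries left out, the call held in 6 of 6 fits for D458 hairpin 7, in 5 of 6 for D458 hairpin 8 (0.056 without its replicate 1) and in 2 of 6 for D425 hairpin 8 (highest 0.10, without its replicate 1).

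MRPL47, the homologue of bacterial L29 near the exit of the peptide tunnel, fell in the same 3 comparisons. In D458 it was at 89.0, 76.2 and 83.2 CPM in controls, 59.6, 64.3 and 64.9 with hairpin 7 and 56.1, 67.2 and 70.1 with hairpin 8. Its log2 changes were -0.40 ± 0.09 (adjusted p = 0.0079) and -0.36 ± 0.09 (adjusted p = 0.013), with no overlap in either. In D425 it fell from 68.5, 58.5 and 70.8 CPM to 53.6, 47.6 and 50.2 with hairpin 8 (-0.39 ± 0.09, adjusted p = 0.0081). The calls held in 5 of 6 fits for D458 hairpin 7 (0.051 without its replicate 1), in 4 of 6 for D458 hairpin 8 (highest 0.086, without its replicate 1) and in 5 of 6 for D425 hairpin 8 (0.051 without control 3). MRPL47 overlaps ACTL6A and MRPS7 overlaps other counted genes, so their counts are uncertain in part.

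MRPL1, which forms the mobile L1 stalk, and MRPS18C, one of the human homologues of bacterial S18, had the largest falls with D458 hairpin 8. MRPL1 stood at 27.1, 23.9 and 29.5 CPM in D458 controls, 19.5, 21.2 and 18.3 with hairpin 7 and 16.5, 20.7 and 19.4 with hairpin 8 (-0.45 ± 0.13, adjusted p = 0.025, and -0.51 ± 0.13, adjusted p = 0.014). MRPS18C stood at 21.4, 21.5 and 21.9 CPM in controls, 11.8, 14.6 and 17.5 with hairpin 7 and 11.4, 17.6 and 14.4 with hairpin 8 (-0.56 ± 0.16, adjusted p = 0.021, and -0.58 ± 0.16, adjusted p = 0.018). In both genes all hairpin libraries lay below the controls. With single libraries left out, the MRPL1 calls held in 2 of 6 fits for hairpin 7 (highest adjusted p 0.12, without control 3) and in 4 of 6 for hairpin 8 (highest 0.089, without its replicate 1). Those of MRPS18C held in 1 and 3 of 6, with the highest adjusted p, 0.13 and 0.11, without replicate 1 of the hairpin. In D425 neither was called, with changes of 0.18 and 0.03 for MRPL1 and 0.00 and -0.20 for MRPS18C. The remaining members named by smallest adjusted p in D458 were MRPS31, MRPL39, MRPS10, MRPL17 and MRPL34 with hairpin 7 and MRPL54, MRPS31, MRPL9, MRPL16 and MRPL27 with hairpin 8, at -0.48 to -0.25.

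MRPS26, a small subunit protein with no bacterial homologue, was called lower in each of the 4 hairpin comparisons. In D425 its controls were at 107, 116 and 115 CPM, hairpin 6 at 82.9, 85.9 and 79.5 and hairpin 8 at 75, 83.0 and 79.1, far from overlap. The changes were -0.45 ± 0.08 (adjusted p = 0.0024) and -0.51 ± 0.08 (adjusted p = 0.00059), and they share their controls. In D458 its controls were at 103, 106 and 105 CPM, hairpin 7 at 81.3, 89.0 and 91.9 and hairpin 8 at 73.7, 92.8 and 93.2. There the changes were -0.26 ± 0.08 (adjusted p = 0.038) and -0.27 ± 0.08 (adjusted p = 0.029). The D425 calls held without any single library, and the D458 calls held in 0 and 2 of 6 such fits (highest adjusted p 0.19 and 0.20, each without replicate 1 of the hairpin).

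MRPS2, the homologue of bacterial S2, and MRPL41, a large subunit protein with no bacterial homologue, were called in D425 and in neither D458 comparison. MRPS2 stood at 141, 188 and 200 CPM in D425 controls, 111, 131 and 117 with hairpin 6 and 94.8, 125 and 113 with hairpin 8 (-0.56 ± 0.13, adjusted p = 0.0079, and -0.67 ± 0.13, adjusted p = 0.0016). MRPL41 stood at 89.0, 99.5 and 98.3 CPM in D425 controls, 73.0, 79.5 and 75.7 with hairpin 6 and 64.2, 71.2 and 74.8 with hairpin 8 (-0.33 ± 0.09, adjusted p = 0.021, and -0.45 ± 0.09, adjusted p = 0.0024). Both genes lay below the D425 controls in all 6 hairpin libraries. The hairpin 8 calls held without any single library, and the hairpin 6 call of MRPS2 was lost only without D425 control 3 (adjusted p = 0.059). The hairpin 6 call of MRPL41 held in 2 of 6 such fits and was lost without controls 2 and 3 and hairpin 6 replicates 1 and 3 (highest adjusted p 0.091, without control 3). In D458 with hairpin 8 they changed by -0.09 ± 0.13 (adjusted p = 0.65) and -0.01 ± 0.09 (adjusted p = 0.94). The effect of hairpin 8 was higher in D458 than in D425 by 0.59 ± 0.18 for MRPS2 (adjusted p = 0.043) and 0.44 ± 0.13 for MRPL41 (adjusted p = 0.035).

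The members that rose were few and belonged to the small subunit. MRPS9, the homologue of bacterial S9, stood at 52.6, 57.4 and 54.5 CPM in D458 controls, 64.1, 63.2 and 71.9 with hairpin 7 and 60.5, 63.3 and 66.1 with hairpin 8. All 6 hairpin libraries lay above the controls (0.28 ± 0.07, adjusted p = 0.012, and 0.21 ± 0.07, adjusted p = 0.043). In D425 it was at 49.2, 46.2 and 51.1 CPM in controls, 56.5, 58.7 and 55.4 with hairpin 6 (0.22 ± 0.07, adjusted p = 0.046) and 53.9, 54.1 and 53.4 with hairpin 8 (0.14 ± 0.07, adjusted p = 0.17). MRPS6, the homologue of bacterial S6, rose in D425 from 70.9, 62.9 and 58.6 CPM to 86.5, 80.6 and 88.0 with hairpin 6 (0.41 ± 0.09, adjusted p = 0.0045) and 82.8, 79.0 and 81.2 with hairpin 8 (0.34 ± 0.09, adjusted p = 0.01). In D458 it stood lower at 29.8, 31.7 and 33.2 CPM in controls and changed by -0.14 ± 0.09 with each hairpin (adjusted p = 0.28 and 0.24). With single libraries left out, the MRPS9 calls held in 6 of 6 fits for D458 hairpin 7, in 1 of 6 for D458 hairpin 8 (highest 0.10, without control 1) and in 0 of 6 for D425 hairpin 6 (highest 0.18, without control 2). Those of MRPS6 held in all fits except hairpin 8 without D425 control 3 (0.073). MRPS6 shares its locus with SLC5A3, so that reads of the pair may not be told apart.

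**Figure D3:**
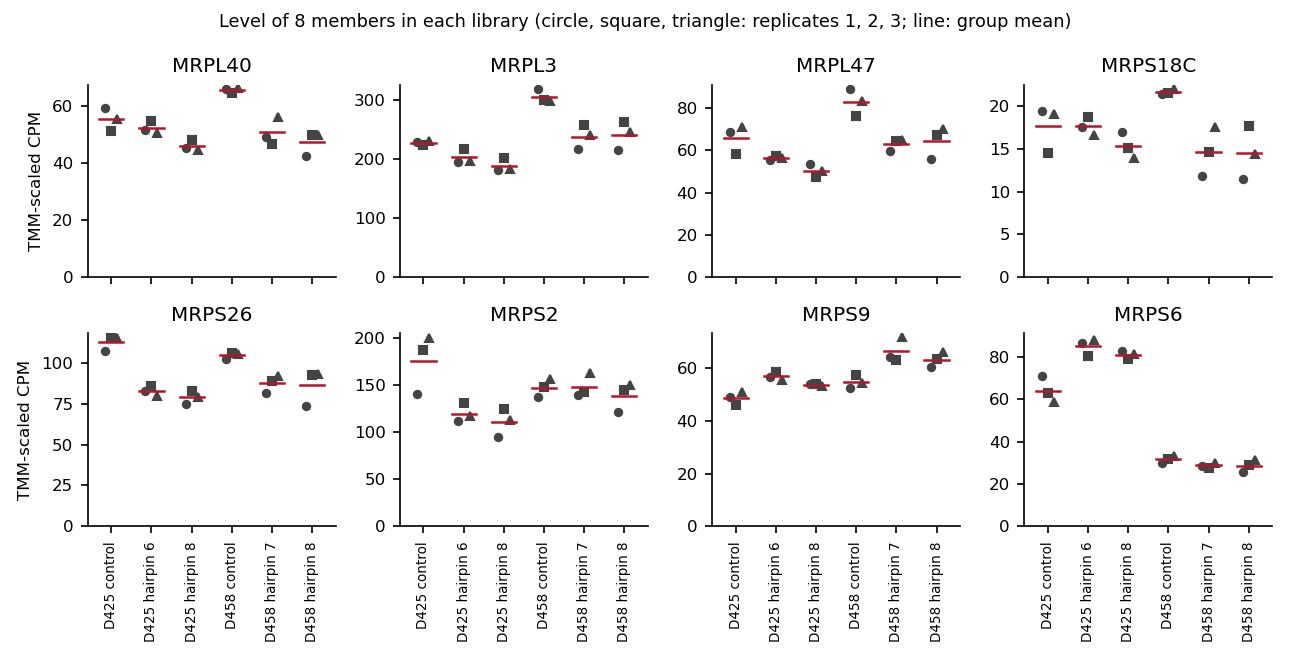
TMM-scaled CPM (vertical axis, from 0) of 8 members in each of 18 libraries by group, with replicates 1, 2 and 3 as circle, square and triangle and the group mean as a line. MRPL40, MRPL3, MRPL47 and MRPS18C lie below the controls in every D458 hairpin library, MRPS2 lies below them in D425, MRPS9 lies above them in D458 and MRPS6 above them in D425.

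The lines share no libraries, so their hairpin 8 calls could be set against each other. The members called lower in both were MRPL27, MRPL3, MRPL40, MRPL47 and MRPS26, which is 31.3% of the 16 in D425 and 21.7% of the 23 in D458. Over all genes, the 302 lower in both were 20.1% of the D425 calls and 18.3% of the D458 calls. Lower calls were more frequent among members than among all genes in each line, and the members' shares in both are near the 29.9% of members lower in D458 and the 20.8% lower in D425. The hairpin 8 difference was tested by subtracting the D425 change from the D458 change, and 5 members were called (6.49%, background 11.8%). MRPS25 (0.49 ± 0.13, adjusted p = 0.029), MRPL41 and MRPS2 were higher in this difference (3 of 77, background 6.19%), and MRPS6 (-0.48 ± 0.12, adjusted p = 0.019) and MRPL13 (-0.68 ± 0.21, adjusted p = 0.044) were lower (2 of 77, background 5.65%). MRPL13 stood at 64.3, 47.4 and 58.4 CPM in D425 controls and 70.9, 60.8 and 66.1 with hairpin 8, and at 43.3, 35.2 and 44.7 and then 22, 32.3 and 35.0 in D458. MRPS25 changed by -0.31 ± 0.10 in D425 (adjusted p = 0.03) and by 0.18 ± 0.10 in D458 (adjusted p = 0.18). It overlaps NR2C2, so its counts are uncertain in part. None of these 5 differences was called in all fits that left out 1 of the 12 libraries, and the share of members called was below that of all genes.

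The position of a member in the genome went with its change in D425. Each member was set beside the median change of the 40 tested genes nearest to it on its chromosome, 20 on each side. Across the 77 members, change and neighbour median correlated at r = 0.73 (Spearman's rho 0.64) with D425 hairpin 6 and r = 0.65 (rho 0.56) with D425 hairpin 8. In D458 the values were r = 0.19 (rho 0.21) with hairpin 7 and r = 0.21 (rho 0.25) with hairpin 8. Members of a comparison share all its libraries, and close neighbours share genes, so these are descriptions. Of the 16 members lower with D425 hairpin 8, 14 had a neighbour median below 0, against 17 of the 60 not called. Of the 23 lower with D458 hairpin 8 it was 14, against 23 of the 53 not called.

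In D425 the tested genes of chromosome 9 had a median change of -0.30 with hairpin 6 and -0.27 with hairpin 8, and those of chromosome 20 had -0.27 and -0.28. In D458 these medians were 0.06 and 0.05 for chromosome 9 and -0.04 and -0.06 for chromosome 20. Other chromosomes were shifted in D458 with hairpins 7 and 8. Their medians were -0.19 and -0.19 for chromosome 18, -0.13 and -0.15 for chromosome 16 and 0.12 and 0.17 for chromosome 5. Chromosome 4, which holds MRPL1 and MRPS18C, had 0.14 and 0.16. MRPS2 and MRPL41 lie on chromosome 9, with hairpin 8 changes in D425 of -0.67 and -0.45 beside neighbour medians of -0.43 and -0.52. MRPS26 lies on chromosome 20, at -0.51 beside -0.35, and MRPL38 and MRPS7, both on chromosome 17, were at -0.38 beside -0.34 and -0.32 beside -0.22. MRPL50, which fell with both D425 hairpins, was at -0.25 beside -0.30. Over all 16 members lower with D425 hairpin 8 the median difference from neighbours was -0.11, and over the 60 not called it was -0.10. In D458 with hairpin 8, MRPL3 was at -0.34 beside 0.01, MRPL47 at -0.36 beside 0.01, MRPL1 at -0.51 beside 0.19 and MRPS18C at -0.58 beside 0.16, while MRPL40 was at -0.47 beside -0.25.

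After the neighbour median was subtracted, the median member change was -0.01 with D425 hairpin 6, -0.11 with D425 hairpin 8, -0.18 with D458 hairpin 7 and -0.19 with D458 hairpin 8. Members below their neighbours numbered 43, 59, 66 and 66 of 77. The order of the 4 comparisons was the same with and without the subtraction.

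**Figure D4:**
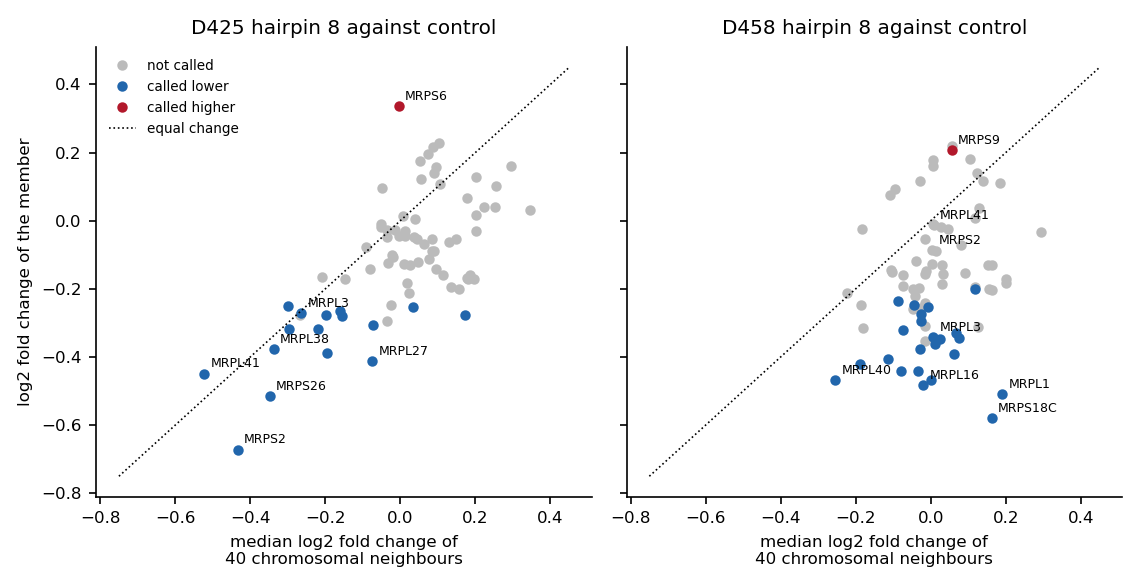
Log2 fold change of each member (vertical axis) against the median log2 fold change of its 40 chromosomal neighbours (horizontal axis) for hairpin 8 in D425 (left, r = 0.65) and D458 (right, r = 0.21), coloured by call, with a dotted line where both are equal. In D425 the lowest members, such as MRPS2 and MRPS26, have neighbours that are also lower, and in D458 members such as MRPL1 and MRPS18C lie below neighbours at or above 0.

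More members differed between the control groups of the lines than between any hairpin and its control, as was so over all genes. Between the control groups 46 of the 77 members were called, beside 9322 of the 14850 genes tested. Members were thus not called more often than all genes. In D458 controls 27 members were higher (35.1%, background 31.4%) and 19 lower (24.7%, background 31.4%) than in D425 controls, with a median change of 0.09 (all genes 0.01). The summed levels, 6702 and 6542 CPM, were close, because members differed in both directions. MRPL34 was higher in D458, at 130, 144 and 133 CPM against 54.9, 50.5 and 49.1 in D425 (2.63-fold, adjusted p = 3.6e-08), though it overlaps ABHD8. MRPL33, MRPS14, MRPS35, MRPL54, MRPS21, MRPL51, MRPS17, MRPL4 and MRPL14 were higher by 0.47 to 0.93.

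MRPS6 was lower in D458 controls by -1.02 ± 0.09 (adjusted p = 3.4e-08), MRPL49 by -0.99 ± 0.10 (adjusted p = 2.4e-07) and MRPL38, of the central protuberance of the large subunit, by -0.96 ± 0.08 (adjusted p = 2.3e-08). MRPL38 stood at 245, 255 and 286 CPM in D425 controls and 135, 133 and 136 in D458 controls, without overlap. MRPS7, MRPL37, MRPL43, MRPL45, MRPL48, MRPS25 and MRPL10 were lower by log2 values of -0.64 to -0.34. MRPL49 overlaps SYVN1, MRPL37 overlaps SSBP3 and MRPL43 overlaps SEMA4G, so their counts are uncertain in part. Change and neighbour median correlated at r = 0.81 (rho 0.84) over the 77 members. Of the 27 members higher in D458, 27 had a neighbour median above 0, and of the 19 lower, 18 had one below 0. The calls held without any single one of the 6 control libraries for 34 of the 46 members.

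**Figure D5:**
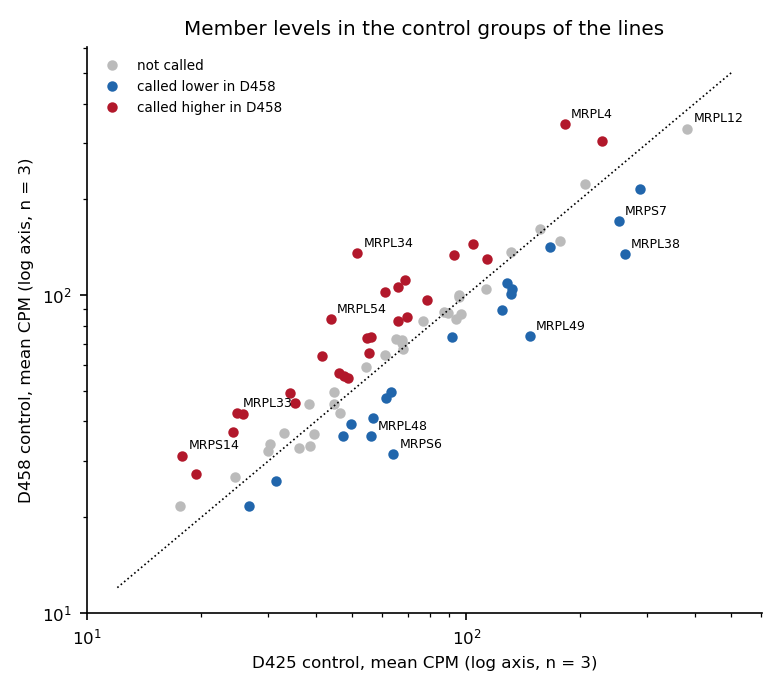
Mean CPM of each member in the control groups of D425 (horizontal, log axis) and D458 (vertical, log axis), n = 3 each, coloured by call, with a dotted line of equal level. MRPL34, at 136 CPM in D458 and 51.5 in D425, lies farthest above the line, and MRPS6, MRPL49 and MRPL38 lie below it.

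The wider machinery of mitochondrial translation was read from lists. Genes of these lists were not set beside their chromosomal neighbours, so shifts of whole chromosomes, as in both lines, are not separated from their changes. Of 27 assembly and RNA modification factors, 3 and 6 fell with the D425 hairpins 6 and 8 and 11 and 11 with the D458 hairpins 7 and 8, while 1 rose with D458 hairpin 7 . Over all genes, in the same order, 6.84%, 10.1%, 11.1% and 11.1% were called lower and 7.31%, 11.6%, 11.5% and 12.1% higher, which is the background for each list here. TRUB2, an RNA pseudouridine synthase, fell in D425 by -0.51 ± 0.07 (adjusted p = 0.00042) and -0.57 ± 0.07 (adjusted p = 0.00013), together with MTG2, a GTPase of large subunit assembly, and DHX30, a helicase. In D458, MRM1, a methyltransferase of the large ribosomal RNA, fell by -0.68 ± 0.12 with each hairpin (adjusted p = 0.0015 and 0.0014), and MPV17L2 fell by -0.65 ± 0.11 and -0.48 ± 0.11 (adjusted p = 0.00091 and 0.0058). The median changes of this list were -0.09, -0.10, -0.25 and -0.24 in the 4 comparisons.

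Of 13 translation factors, 3, 3, 5 and 3 fell (23.1%, 23.1%, 38.5% and 23.1%) and 0 rose, with medians of -0.07, -0.11, -0.21 and -0.19. GFM1, the elongation factor G of mitochondria, fell in D425 by -0.64 ± 0.08 (adjusted p = 0.00014) and -0.42 ± 0.08 (adjusted p = 0.0019) and with D458 hairpin 7 by -0.30 ± 0.08 (adjusted p = 0.015). MRRF, the ribosome recycling factor, fell in D425 by -0.53 ± 0.12 and -0.59 ± 0.12 (adjusted p = 0.0058 and 0.0021). In D458, MTRF1, a release factor homologue, fell by -0.67 ± 0.16 and -0.50 ± 0.16 (adjusted p = 0.0086 and 0.033). Of 17 mitochondrial aminoacyl-tRNA synthetases, which load tRNAs with amino acids, 1, 2, 7 and 6 fell and 3, 2, 1 and 0 rose. LARS2, for leucine, fell in D425 by -0.50 ± 0.08 and -0.49 ± 0.08, where FARS2, for phenylalanine, rose by 0.40 ± 0.11 and 0.49 ± 0.11, and EARS2, for glutamate, fell in D458 by -0.64 ± 0.13 and -0.72 ± 0.13. Of 6 ribosome subunits under other symbols, 0, 2, 0 and 1 fell and 0 rose, ICT1 and AURKAIP1 in D425 with hairpin 8 and AURKAIP1 in D458 with hairpin 8.

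Of 13 genes of mitochondrial transcription and genome upkeep, 0, 2, 4 and 7 fell and 0 rose. TFB2M, the factor with which the mitochondrial RNA polymerase starts transcription, fell in D458 by -0.50 ± 0.09 and -0.56 ± 0.09 (adjusted p = 0.0018 and 0.00079), and TFAM, which packs mitochondrial DNA, fell with D458 hairpin 7 by -0.49 ± 0.13 (adjusted p = 0.012). Of 9 regulators of mitochondrial biogenesis, 2, 1, 1 and 2 fell (22.2%, 11.1%, 11.1% and 22.2%) and 0, 0, 1 and 1 rose, with shares for D425 hairpin 8 and D458 hairpin 7 near the background. MYC fell in D425 by -0.43 ± 0.10 (adjusted p = 0.0073) and -0.55 ± 0.10 (adjusted p = 0.00094), from 3347 to 3735 CPM in the 3 controls to 2270 to 2894 CPM in the 6 hairpin libraries. In D458 it was at 3992 to 4091 CPM in controls and 2902 to 3752 CPM in the hairpin libraries, without overlap, and its changes of -0.24 ± 0.10 and -0.25 ± 0.10 were not called (adjusted p = 0.076 and 0.065). PPARGC1A, a coactivator of the nuclear respiratory factors, fell with D425 hairpin 6 by -1.13 ± 0.33 (adjusted p = 0.028) and rose in D458 by 1.66 ± 0.31 (adjusted p = 0.0021) and 1.70 ± 0.31 (adjusted p = 0.0017), opposite to most members there. PPRC1, a related coactivator, fell in D458 by -0.39 ± 0.11 and -0.35 ± 0.11, and NRF1 fell with D458 hairpin 8 by -0.38 ± 0.12 (adjusted p = 0.031).

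Replicate number mattered for how many members were called. Libraries with the same number share a prefix in their descriptions, and the labels do not say what it stands for. The date in the label of replicate 1 precedes the single date of replicates 2 and 3 in every group. Set against the control of the same number, the median log2 ratio of members (with 0.5 CPM added) was -0.37, -0.11 and -0.09 for D458 hairpin 8 in numbers 1, 2 and 3, and -0.28, -0.15 and -0.07 for D458 hairpin 7. For D425 hairpin 8 it was -0.17, -0.01 and -0.15, and for D425 hairpin 6 it was 0.00, 0.09 and -0.05. The median was thus below 0 in each number for both D458 hairpins, and deepest in replicate 1. With the replicate number as a block, 33 members fell with D458 hairpin 7 (background 20%) and 35 with D458 hairpin 8 (background 19.7%), while 8 fell with D425 hairpin 6 (background 13.3%) and 7 rose (background 14.5%). With D425 hairpin 8 the block gave 19 lower (24.7%, background 17.7%).

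In the libraries of numbers 2 and 3 alone, which share a date, 7, 17, 10 and 4 members fell with D425 hairpins 6 and 8 and D458 hairpins 7 and 8 (backgrounds 10.8%, 12.8%, 7.94% and 6.14%). Without number 2 the counts were 0, 2, 1 and 2 (backgrounds 0.352%, 2.91%, 1.82% and 2.13%), and without number 3 they were 0, 2, 0 and 2 (backgrounds 0.381%, 1.62%, 1.48% and 2.36%). Leaving out number 2 or 3 thus lost more calls than leaving out number 1. For D458 hairpin 8, 4 of 77 is 5.19%, near the background, although the median member change was still -0.10. Number 1 alone holds 1 library per group and allows no test.

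Single libraries also decided many calls. Shares over all genes are not given for these fits, so losses among members cannot be told from losses over all genes. Leaving out number 1 in every group took the share of all genes lower with D458 hairpin 8 from 11.1% to 6.14%. Without D458 hairpin 8 replicate 1, the 23 members lower with hairpin 8 became 1, which was MRPL40, and without D458 controls 1, 2 and 3 they became 7, 10 and 5. The 18 lower with D458 hairpin 7 became 2 without its replicate 1, 10 without its replicate 2, and 4, 8 and 5 without D458 controls 1, 2 and 3. The 16 lower with D425 hairpin 8 became 7 without D425 control 3 and 9 without hairpin 8 replicate 1. The 6 lower with D425 hairpin 6 became 3 without control 2, 1 without control 3, and 2, 4 and 3 without hairpin 6 replicates 1, 2 and 3. Calls that held without any single library were those of MRPS26 and MRPS6 with D425 hairpin 6 and those of MRPL27, MRPL38, MRPL41, MRPS2, MRPS21, MRPS26 and MRPS7 with D425 hairpin 8. In D458 they were those of MRPL3, MRPL40 and MRPS9 with hairpin 7 and that of MRPL40 with hairpin 8.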

How the data were processed

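The deposited table held read counts per gene symbol, whole numbers with no normalization, 1 column per library. The submitters' processing notes name TopHat2 and Bowtie2, HTSeq, SAMtools and Picard, bcl2fastq and FastQC, and the builds GRCh37 and hg19. Their versions, how strand entered the counting and how reads with several matches were treated are not given in those notes or in the labels. Libraries were stranded poly(A) libraries, per the labels' protocols.

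From these counts, R 4.3.3 and edgeR 4.0.16 gave TMM factors, TMM-scaled CPM and a robust quasi-likelihood fit of the 18 libraries, in which each group had its own coefficient (12 residual degrees of freedom, biological coefficient of variation 0.153). The function filterByExpr (minimum count 10) kept 14850 genes and removed 10519. Adjusted p come from this fit over all genes tested, in 8 comparisons, except those given for left-out libraries, which come from refits. Alternatives were DESeq2 1.42.0, other size factors, library totals, no filter, fits of only the groups compared, a replicate block and left-out libraries.

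The members, the lists and the rule for naming genes were chosen with earlier results of these data known. The rule names up to 10 called members per direction and comparison, and up to 4 called genes per list, by smallest adjusted p. The 5 promoters were chosen after their genes' values were seen. Members were placed by RefSeq's GRCh38.p14 gene order, which held 97.6% of the tested genes. Lengths are the median over principal coding transcripts of GENCODE. No 2 libraries of a group agreed within sampling noise. The labels call replicates biological.

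Same-numbered libraries share a prefix in the descriptions. The main fit had no replicate block, and they were taken as pairs only in the fit with the block and in the ratios by number. Within a line, their deviations from group means correlated at 0.08 to 0.61 in D425 and 0.13 to 0.70 in D458, with means of 0.30 and 0.35. Those of other pairs ran from -0.41 to 0.20 and from -0.60 to 0.34, with means of -0.14 and -0.17, so that the ranges overlapped.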

Additional observations from a re-analysis of the deposited data

Results flagged for a closer look

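The hairpin 8 effect differed between the lines for 5 members by the edgeR test of the difference (D458 minus D425, log2). It was -0.4823 for MRPS6 and -0.6837 for MRPL13, and 0.4861 for MRPS25, 0.4362 for MRPL41 and 0.586 for MRPS2. Over all genes 11.8% were called in this test, more than the 5 of 77 members, and each of the 5 lost its call without at least 1 of the 12 libraries. All 5 had neighbour medians in the same direction as their differences.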

How the results depend on the processing

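No named member changed direction among the 1020 alternatives run on 66 calls, of which 781 kept the call and 239 lost it. With the replicate block, which pairs the libraries by number, the members called were 15 for D425 hairpin 6, 35 for D458 hairpin 7, 39 for D458 hairpin 8 and 17 for the hairpin 8 difference. Over all 14850 genes tested the block called 4134, 5937, 5888 and 3934 in the same order. The share of members called was below that of all genes for D425 hairpin 6 and the hairpin 8 difference. It was above that of all genes for the D458 hairpins. The block changed no other count of members by over 1.5 times. Without the filter on low counts, 10 and 12 were called with D458 hairpins 7 and 8. Fits of only the groups compared called 9 with D425 hairpin 8, 5 with D458 hairpin 8 and 2 in the hairpin 8 difference, where DESeq2 called 9. Library totals gave medians of -0.0238 for D425 hairpin 8, -0.0456 for its direct comparison with hairpin 6 and -0.0005 for the control groups. Over all genes the medians with library totals were 0.0928, 0.0472 and -0.082 in the same order. In the main fit those of all genes were 0.0152, 0.0062 and 0.0088, so the shift with this scaling was not particular to the members. With library totals, higher and lower calls were 4 and 6 for D425 hairpin 6, 4 and 8 for D425 hairpin 8, 2 and 11 for D458 hairpin 7, 21 and 26 for the control groups and 3 and 4 for the hairpin 8 difference. Apart from the block, shares over all genes are not given for these fits, so their counts are not read as a trait of the members. Causes were not tested.

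With libraries or replicate numbers left out, members called ran from 0 to 12 for D425 hairpin 6, 2 to 20 for D425 hairpin 8, 0 to 19 for D458 hairpin 7, 1 to 23 for D458 hairpin 8 and 0 to 10 for the hairpin 8 difference. The control groups gave 32 to 47. Without replicate number 2 or 3, only 0.352% to 2.91% of all genes were called lower with the hairpins against control. The ranges of members called are therefore not read as a trait of the members. The medians ran from -0.0382 to 0.0254, -0.1468 to -0.0677, -0.2005 to -0.1169 and -0.2196 to -0.089 for the hairpins against control in that order, from -0.1073 to 0.0148 for the hairpin 8 difference, 0.0482 to 0.119 for the control groups, -0.1047 to -0.0709 for the D425 hairpins against each other and -0.0614 to 0.0572 for those of D458. At 430.3 counts on average for the lowest member, the spread between replicates limits these values more than counting error does.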
